A study of Homo sapiens with 60 samples.

Results

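The epithelial-mesenchymal transition (EMT) was described through 10 genes, picked by name as its best known factors and markers out of the 19712 genes in the deposited tables. They comprised 5 transcription factors (ZEB1, ZEB2, SNAI1, SNAI2 and TWIST1), 2 epithelial surface markers (CDH1 and EPCAM) and 3 mesenchymal markers (CDH2, VIM and FN1). In EMT, epithelial cells loosen their junctions and take on the shape, matrix and motility of mesenchymal cells. The ZEB, SNAI and TWIST proteins are known to bind E-box sequences and to repress junction genes such as CDH1, and TGF-beta is a well known inducer of the program. In lung cancers with mutant EGFR, a mesenchymal state has often been described in cells that survive EGFR inhibition without a further EGFR mutation.

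Bulk mRNA was sequenced from 4 established lines of EGFR mutant non-small cell lung cancer (NSCLC), namely PC9, HCC827 and H1975 together with HCC2935, as 60 libraries that made 5 arms of 3 libraries in each line. Osimertinib, an irreversible inhibitor of mutant EGFR, was used at 500 nM. Drug-tolerant persisters (DTP) were harvested after 21 days of drug, short washout cells after a further 24 h in medium without it, and long washout cells after 7 days in PC9, 4 days in HCC827, 3 days in H1975 and 10 days in HCC2935. The acute arm and the DMSO arm were parental cells kept without drug for 21 days and then given osimertinib or vehicle for 24 h, so no vehicle arm ran beside the washouts. Each line is an established tumor line in monolayer culture, the labels call the libraries biological triplicates, and the labels tie the libraries of one arm to those of another by nothing but a number.

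Libraries held 17.7 to 49.1 M estimated counts, with medians of 40.2 M in PC9, 19.7 M in HCC827, 42.9 M in H1975 and 21.6 M in HCC2935, and each of the 60 libraries was most similar to another of its own line. DUSP6, a feedback target of the ERK pathway that the drug shuts off, changed by -3.40 (HCC827) to -5.98 (PC9) on the log2 scale in the acute arm, past the test in every line. Under DTP it lay at 8.23, 19.1 and 6.98 TPM (the length-corrected share of transcripts) in HCC827, against 12.5, 15.3 and 14.9 TPM under DMSO, and did not pass the test there (adjusted p = 0.618). The labels put the long washout at the return of exponential growth, but MKI67, a proliferation marker, differed from DTP by -0.02 ± 0.28 in HCC827 and -0.32 ± 0.31 in H1975 (log2 fold change ± SE, adjusted p = 1 in both). It rose by 1.10 ± 0.18 in PC9 and 1.56 ± 0.23 in HCC2935 (adjusted p = 0.00114 and 0.000908). In H1975, DUSP6 was as low in short washout (0.719, 0.920 and 0.554 TPM) and long washout (0.404, 0.319 and 1.88 TPM) as under DTP (0.892, 1.48 and 0.581 TPM), against 8.73, 5.91 and 7.68 TPM under DMSO. DUSP6 also stayed below DMSO in both washouts of PC9, at 0.871 to 7.64 TPM. It was at 26.7 to 36.8 TPM there under DMSO and 0.846 to 1.85 TPM under DTP. Both washouts of HCC2935 had 11.0 to 24.8 TPM, against 133 to 137 TPM under DMSO and 8.41 to 14.2 TPM under DTP. Among the DTP libraries of HCC827, only library 2 exceeded the DMSO libraries in DUSP6. The short washout of HCC827 had 4.22, 15.8 and 5.62 TPM. Its long washout had 26.3, 21.1 and 18.8 TPM, above every DMSO library of that line. MKI67 there was lower under DTP (12.8 to 22.1 TPM) than under DMSO (46.1 to 54.7 TPM). DUSP6 was thus not low throughout the DTP group of HCC827, and it stayed low in the H1975 libraries labelled washout. It also overlapped DTP in the short washout of HCC2935 (11.0 to 15.9 TPM) and in long washout library 3 of PC9 (0.871 TPM). DUSP6 RNA does not measure the drug itself. The labels do not settle the reason, which was not tested. Some libraries stood apart from their groups. DMSO library 2 and acute library 1 of H1975 had low CDH1 and EPCAM with high VIM, and library 1 of DTP and of short washout in HCC827 kept more CDH1 and EPCAM than the others.

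All 4 lines had keratins of simple epithelium, with KRT8, KRT18 and KRT19 at 394 TPM or more in every library. Their sum with EPCAM and CDH1 was 6220 to 7924 TPM under DMSO and 2350 to 3312 TPM under DTP in HCC827. It was 10048.5 to 10479 against 7007 to 8047 TPM in HCC2935 and 2350 to 2953 against 1636 to 2288 TPM in H1975. In PC9 it was higher under DTP, at 6895 to 7048 against 8008 to 8243 TPM. Of the lung lineage markers, the surfactant gene SFTPB was at or near 0 (at most 2.73 TPM), and NAPSA, an aspartic protease of alveolar cells, ran from 0.264 to 3.90 TPM in PC9 and from 7.66 to 421 TPM in HCC2935. Of 3 leukocyte markers, CD3E was at most 0.246 TPM in any library, while PTPRC ran from 0.802 to 3.48 TPM and CD14 from 0.743 to 5.11 TPM in H1975, where their sum was 2.97 to 4.85 TPM under DMSO and 2.38 to 5.61 TPM under DTP. Of 3 endothelial markers, CDH5 ran from 9.40 to 21.1 TPM in HCC2935 and reached 10.6 TPM in PC9, where PECAM1 reached 10.2 TPM. The sum of the endothelial markers was 8.42 to 15.1 TPM under DMSO and 5.62 to 6.37 TPM under DTP in PC9, 12.5 to 16.7 against 13.9 to 17.6 TPM in HCC2935, and 0.919 to 2.16 against 3.03 to 4.53 TPM in H1975. Markers of fibroblasts moved with the arms: the sum of 5 of them was 5.22 to 9.37 TPM under DMSO and 26.0 to 62.8 TPM under DTP in HCC827, where 1 and 4 of the 5 had a mean over 1 TPM, 26.7 to 33.3 against 43.4 to 83.7 TPM in HCC2935, 20.9 to 49.0 against 31.9 to 80.3 TPM in H1975 and 6.16 to 8.41 against 13.8 to 18.4 TPM in PC9. COL1A1 reached 166.9 TPM in H1975, COL3A1 16.5 and LUM 11.7 TPM in HCC827, and PDGFRB 8.50 TPM in H1975, while DCN was at most 1.33 TPM. The part of all these markers in the results below was not tested.

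Under DMSO the lines differed in their starting EMT state. H1975 was the most mesenchymal by VIM, the intermediate filament protein vimentin, with 959, 1926 and 1092 TPM, and it also had the highest SNAI1 (46.0, 27.7 and 36.0 TPM), a zinc finger repressor of CDH1, and the highest ZEB1 (4.76, 11.2 and 6.02 TPM). Means of VIM followed at 93.7 ± 17.1 TPM in HCC827, 24.6 ± 7.41 TPM in HCC2935 and 16.9 ± 3.88 TPM in PC9 (SD, n = 3), and the libraries of the last pair overlapped. CDH1, the E-cadherin of adherens junctions, had the order HCC2935 (541 ± 25.9 TPM), HCC827 (328 ± 18.3), PC9 (91.9 ± 4.42) and H1975 (84.5 ± 37.5), of which PC9 and H1975 overlapped. EPCAM, an epithelial adhesion molecule, was also highest in HCC2935 at 748 ± 46.3 TPM and lowest in H1975 at 212 ± 78.4 TPM, with PC9 (527 ± 31.2) and HCC827 (468 ± 39.2) overlapping between them.

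Mesenchymal markers did not share 1 order across the lines. FN1, the matrix protein fibronectin, was highest in HCC2935 at 1215 ± 96 TPM, the line with the most CDH1, and lowest in PC9 at 24.4 ± 5.52 TPM. CDH2, N-cadherin, ran from 11.3 ± 3.12 TPM in HCC2935 through 1.95 ± 0.856 in HCC827 and 0.233 ± 0.0465 in PC9 to 0.0522 ± 0.0204 TPM in H1975, with no overlap between neighbours. TWIST1, a basic helix-loop-helix factor, was at 1.09 ± 0.0981 TPM in PC9 and at 0.0457 TPM or less in the other lines, and it was listed at 0 in the 3 DMSO libraries of HCC827. SNAI2, also known as Slug, overlapped between every pair of neighbours, from 14.8 ± 1.91 TPM in H1975 to 6.26 ± 0.64 TPM in PC9. All 10 genes passed the edgeR F-test of any difference among the lines under DMSO, as did 91.2% of all genes tested. SNAI2 no longer passed without library 1 (adjusted p = 0.052) or library 3 (0.0706) of each line.

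**Figure D1:**
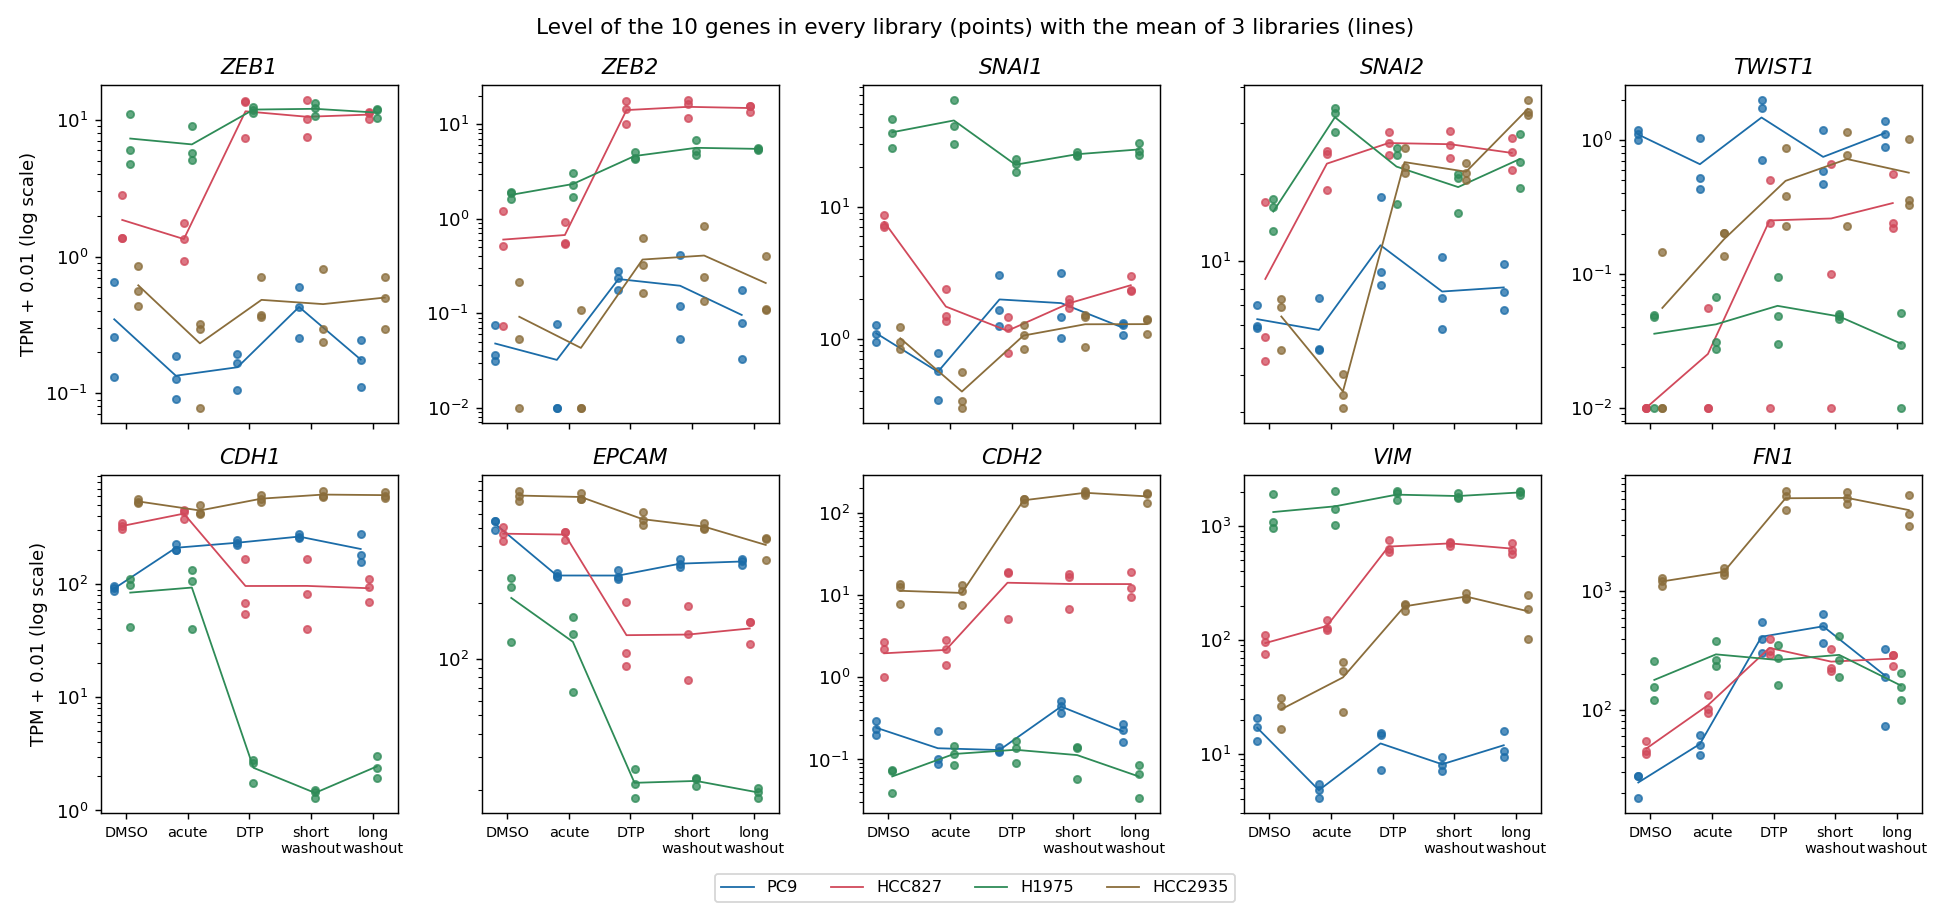
Level of each gene in TPM + 0.01 (log axis) across DMSO, acute osimertinib, DTP, short and long washout, with 1 point per library and a line through the means of 3 libraries for each of PC9, HCC827, H1975 and HCC2935. CDH1 and EPCAM are lower at DTP and in both labelled washouts than under DMSO in HCC827 and H1975, whereas CDH2 and VIM rise at DTP in HCC827 and HCC2935.

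After 24 h of osimertinib, fewer than 5 of the 10 genes were called in any line. Calls (edgeR quasi-likelihood F-test, Benjamini-Hochberg adjusted p under 0.05) fell on 4 of 10 genes in PC9, where 66.2% of all genes were called, on 4 of 9 in HCC827 (39% of all genes), on 2 of 9 in H1975 (51.6%) and on 3 of 10 in HCC2935 (47.1%). TWIST1 was too low to be tested in HCC827 and H1975. The share of members called was thus near that of all genes in HCC827 and below it in the other lines, and none of the 5 transcription factors passed in PC9. Further members reached the threshold at 24 h in some alternatives, among them ZEB1 in PC9 without DMSO library 2 (adjusted p = 0.0135) or acute library 2 (0.0446), with RLE size factors (0.0477) and in DESeq2 (0.0448), and CDH1 in HCC2935 without acute library 2 (0.0219) and in DESeq2 (0.0452) and limma (0.02 and 0.0205). CDH1 of HCC827 did so with the line's own 6 libraries (0.0277). In H1975 they were VIM without DMSO library 2 (0.0414), SNAI1 without acute library 1 (0.0339) and ZEB2 without acute library 2 (0.0143). Under DTP, 6 of 10 were called in PC9 (69.2% of all genes), 9 of 9 in HCC827 (43.4%), 6 of 9 in H1975 (51.7%) and 6 of 10 in HCC2935 (52.8%). The share exceeded that of all genes by a wide margin only in HCC827, where 6 genes rose and 3 fell. The median log2 fold change of the tested members under DTP was 0.38 in PC9, 2.64 in HCC827, 0.54 in H1975 and 1.77 in HCC2935, against 0.06, 0.03, 0.02 and 0.04 over all genes. In bulk RNA, fewer cells of a kind and less RNA per cell cannot be told apart.

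**Figure D2:**
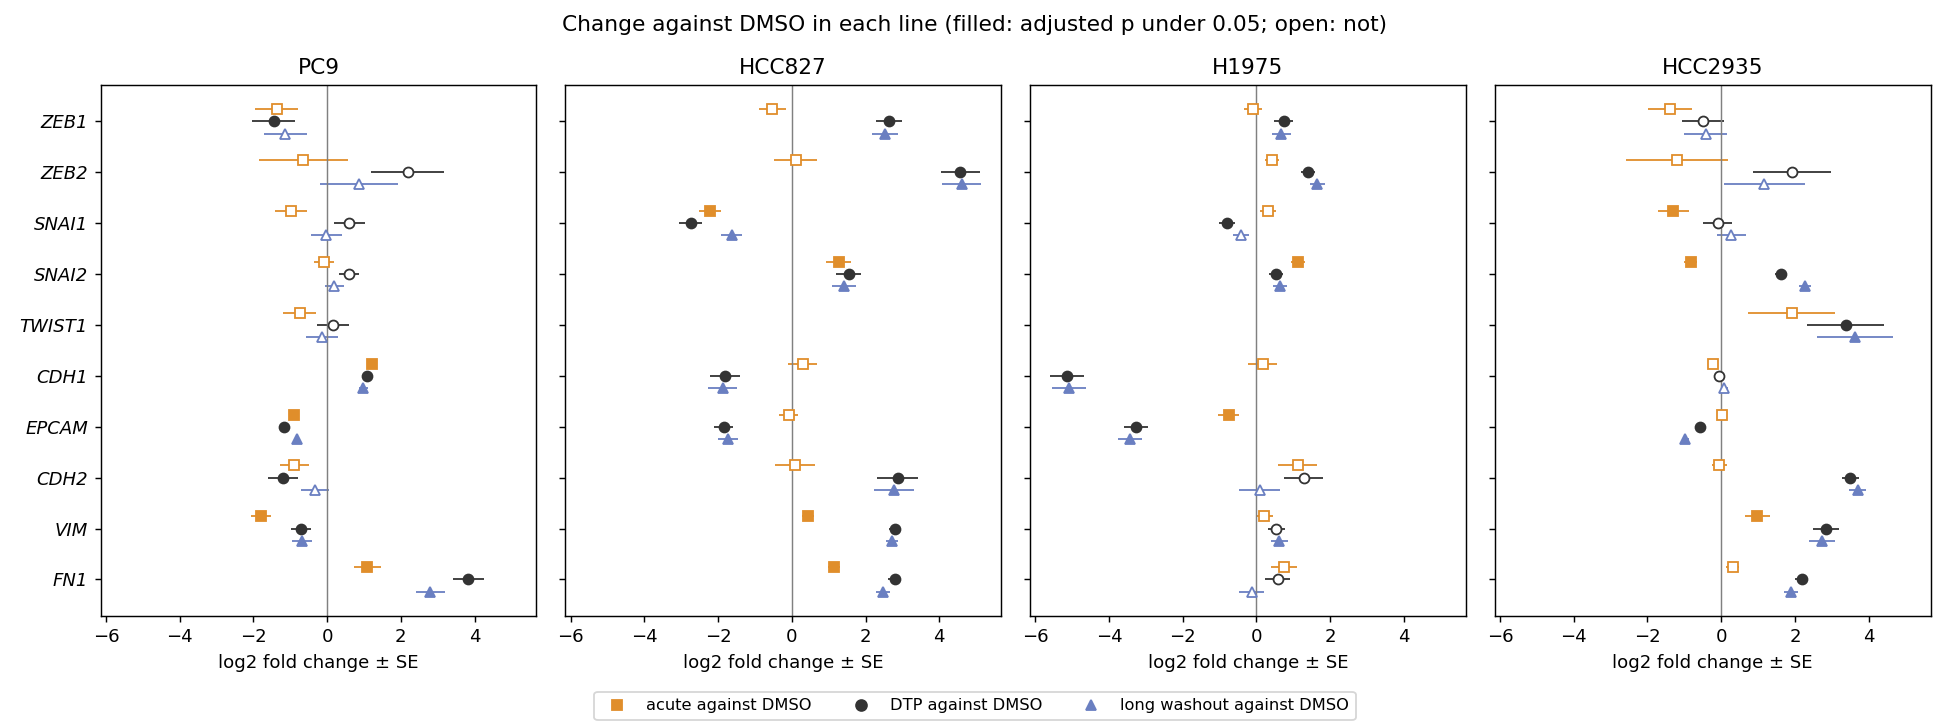
Log2 fold change ± SE against DMSO for acute osimertinib (squares), DTP (circles) and long washout (triangles) in each line, with filled symbols for an adjusted p under 0.05 and open symbols otherwise. TWIST1 was not tested in HCC827 and H1975. CDH1 lies at -5.14 in the DTP of H1975 and at 1.10 in that of PC9.

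ZEB1 and ZEB2 are zinc finger factors that repress CDH1 and other epithelial genes. ZEB1 lies on chromosome 10 (GRCh38, 31318495 to 31529814, plus strand) and ZEB2 on chromosome 2 (144364364 to 144524583, minus strand). RefSeq (GRCh38.p14) gave the 250 bases before the start of 2 members whose window held none of their own exons, ZEB1 and VIM, which both rose in the DTP of HCC827. They are shown with the E-box CACCTG or CAGGTG, the same motif read on either strand, in capitals. It was found once in the window of ZEB1, 57 bases before the RefSeq start, and not in that of VIM. That start differs from the ZEB1 gene start given above, which is from GENCODE. Of 27305 promoter windows of this length, 17.5% held the motif. The windows of ZEB2, CDH2 and FN1, which held own exons and are not printed, had no such motif. No window was available for SNAI1, SNAI2, TWIST1, CDH1 and EPCAM.
ZEB1, chr10:31318167-31318416, plus strand: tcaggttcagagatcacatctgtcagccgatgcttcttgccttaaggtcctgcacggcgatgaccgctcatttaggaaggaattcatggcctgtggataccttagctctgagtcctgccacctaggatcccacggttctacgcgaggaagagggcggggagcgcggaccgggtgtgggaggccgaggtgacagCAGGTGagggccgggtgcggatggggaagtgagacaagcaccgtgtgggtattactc
VIM, chr10:17227991-17228240, plus strand: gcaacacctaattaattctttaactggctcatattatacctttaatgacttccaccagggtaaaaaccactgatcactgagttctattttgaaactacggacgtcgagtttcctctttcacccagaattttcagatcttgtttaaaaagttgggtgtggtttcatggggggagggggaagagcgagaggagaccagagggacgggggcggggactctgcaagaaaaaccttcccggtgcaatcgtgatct

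Both ZEB genes rose in the DTP of HCC827. ZEB1 went from 1.37, 2.80 and 1.37 TPM under DMSO to 7.43, 13.6 and 13.7 TPM, a log2 fold change of 2.64 ± 0.35 (adjusted p = 3.92e-05). ZEB2 went from 0.510, 1.20 and 0.0629 TPM to 9.93, 14.6 and 17.8 TPM, or 4.57 ± 0.53 (adjusted p = 1.25e-05). For both genes all DTP libraries lay above all DMSO libraries. At 24 h neither had moved past the test, with ZEB1 at 0.925 to 1.74 TPM and ZEB2 at 0.529 to 0.908 TPM.

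In H1975, where the ZEB genes were already on, the DTP rise was smaller. ZEB2 went from 1.84, 1.90 and 1.60 TPM to 4.41, 5.11 and 4.28 TPM (1.39 ± 0.19, adjusted p = 3.84e-05). ZEB1 went from 4.76, 11.2 and 6.02 TPM to 12.5, 11.3 and 11.9 TPM (0.74 ± 0.25, adjusted p = 0.0222). The highest DMSO value was the library that stood apart. The ZEB1 call was lost without DMSO library 1 (adjusted p = 0.11) or 3 (0.0944) and without DTP library 1 (0.0555) or 3 (0.056). Without both libraries that stood apart, which were set aside for values such as this one, the change was 1.13, a description with no test.

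ZEB1 and ZEB2 stayed under 1 TPM in every library of PC9 and HCC2935. ZEB1 passed in the DTP of PC9 at -1.45 ± 0.59 (adjusted p = 0.0395), but its libraries, at 0.643, 0.121 and 0.250 TPM under DMSO and 0.0953, 0.183 and 0.157 TPM under DTP, overlapped. The call was lost without DMSO library 1 (adjusted p = 0.358) or DTP library 1 (0.118), 2 (0.0553) or 3 (0.0754), with the replicate number as a block (0.0524), with PC9's DMSO and DTP libraries alone (0.0506) and in both limma fits (0.175 and 0.148). ZEB2 of PC9, at 0.026, 0.0657 and 0.0214 TPM under DMSO and 0.269, 0.226 and 0.164 TPM under DTP, missed the threshold (adjusted p = 0.0612) but passed with the block (0.0448), in both limma fits (0.0352 and 0.043) and with the 6 own libraries (0.00578). In HCC2935, ZEB1 fell short of the threshold at 24 h, at 0.285, 0.0684 and 0.313 TPM against 0.548, 0.847 and 0.425 TPM under DMSO (-1.39 ± 0.61, adjusted p = 0.0702), although the libraries did not overlap. Under DTP neither gene passed there (adjusted p = 0.502 for ZEB1 and 0.142 for ZEB2, and 0.049 for ZEB2 without DMSO library 2).

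SNAI1 (chromosome 20, 49982999 to 49988886, plus strand) encodes Snail, the first of the family tied to CDH1 repression. It moved the other way from the ZEB genes in the DTP of the 2 lines that lost CDH1. In HCC827 it was at 7.03, 8.61 and 7.23 TPM under DMSO, already at 1.48, 1.35 and 2.38 TPM after 24 h, and at 0.768, 1.43 and 1.20 TPM under DTP. The fall was -2.21 ± 0.30 at 24 h (adjusted p = 5.25e-05) and -2.75 ± 0.31 under DTP (9.32e-06). In H1975 it went from 46.0, 27.7 and 36.0 TPM to 23.0, 20.9 and 18.3 TPM under DTP (-0.81 ± 0.22, adjusted p = 0.00663), with no overlap between the groups.

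In HCC2935 SNAI1 fell at 24 h, from 0.829, 1.22 and 0.939 TPM to 0.544, 0.290 and 0.327 TPM (-1.30 ± 0.43, adjusted p = 0.021). That call was lost without acute library 2 (adjusted p = 0.0724) or 3 (0.0729) or DMSO library 2 (0.077). Under DTP its 0.828 to 1.25 TPM overlapped DMSO again (adjusted p = 0.864). PC9 had 0.930 to 1.26 TPM under DMSO, 0.330 to 0.765 TPM at 24 h (adjusted p = 0.0644, but under the threshold in DESeq2, in limma on log2 TPM, with the block, with PC9's own 6 libraries and without acute library 3, at 0.0382 to 0.0495) and 1.25 to 3.02 TPM under DTP (adjusted p = 0.217).

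SNAI2 (chromosome 8, 48917604 to 48921740, minus strand) was the factor detected at over 3 TPM in every library of all lines. In HCC827 it rose within 24 h, from 5.43, 16.0 and 4.46 TPM to 23.3, 17.6 and 24.0 TPM (1.27 ± 0.33, adjusted p = 0.00728), and stood at 27.8, 23.2 and 25.5 TPM under DTP (1.54 ± 0.33, adjusted p = 0.00176). In H1975 the 24 h level of 32.4, 33.6 and 27.9 TPM was the highest of that line, against 12.7, 16.4 and 15.3 TPM under DMSO (1.12 ± 0.19, adjusted p = 0.000208). Its DTP level of 23.1, 15.6 and 24.6 TPM overlapped DMSO, and the call (0.54 ± 0.19, adjusted p = 0.0268) was lost without DMSO library 1 (0.111) or 3 (0.0509), without DTP library 1 (0.0817) or 3 (0.133) and without a filter on low counts (0.0572).

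HCC2935 was the line in which SNAI2 changed sign between the arms. It fell at 24 h from 7.36, 6.91 and 4.90 TPM to 3.43, 4.03 and 3.09 TPM (-0.83 ± 0.17, adjusted p = 0.000958) and rose under DTP to 20.2, 24.5 and 21.0 TPM (1.62 ± 0.16, adjusted p = 7.25e-07). Neither pair of groups overlapped. In PC9, 5.94, 5.84 and 6.99 TPM under DMSO stood against 8.22, 9.10 and 16.5 TPM under DTP (0.60 ± 0.26, adjusted p = 0.057). There the threshold was passed without DTP library 1 (0.0267) or 2 (0.0409), in DESeq2 and both limma fits and with PC9's own libraries (0.0178 to 0.0497).

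TWIST1 (chromosome 7, 19020991 to 19117672, minus strand) was the weakest signal of the 10. In HCC2935 it was listed at 0, 0.137 and 0 TPM under DMSO and at 0.219, 0.868 and 0.371 TPM under DTP, or at most 2.38 and 15.8 estimated counts a library, so the fitted 3.38 ± 1.05 (adjusted p = 0.0126) rests on very few counts. The call was lost without DMSO library 1 (0.0548) or DTP library 2 (0.0694) and in limma on log2(TPM + 1) (0.069). PC9 kept 0.425 to 1.98 TPM throughout, and neither its acute arm (adjusted p = 0.16, or 0.0474 without acute library 3) nor its DTP (0.74) passed. Limma on log2 TPM called the acute arm of HCC2935 (0.0261), where edgeR did not (0.202).

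CDH1 (chromosome 16, 68737225 to 68835548, plus strand) showed the widest range of DTP responses. In H1975 it was at 112, 41.8 and 99.5 TPM under DMSO and at 1.73, 2.63 and 2.77 TPM under DTP, a ratio of means of 35.6 and a log2 fold change of -5.14 ± 0.47 (adjusted p = 1.36e-06). The 24 h libraries, at 40.2, 107 and 134 TPM, overlapped DMSO (adjusted p = 0.736). Even the lowest DMSO library lay far above every DTP library.

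In HCC827, CDH1 went from 309, 346 and 329 TPM to 166, 68.8 and 54.9 TPM under DTP (-1.82 ± 0.40, adjusted p = 0.00206). DTP library 1 lost least. Without it and its short washout counterpart, which were set aside for their CDH1, the change was -2.43, a description with no test. PC9 went the other way, from 92.3, 87.2 and 96.1 TPM to 202, 200 and 229 TPM at 24 h (1.22 ± 0.13, adjusted p = 1.15e-06) and 245, 224 and 231 TPM under DTP (1.10 ± 0.12, adjusted p = 3.19e-06). HCC2935 kept 520, 570 and 534 TPM under DMSO and 566, 532 and 619 TPM under DTP, where the count-based difference was -0.07 ± 0.10 (adjusted p = 0.626). The means in TPM, 541 and 573, differed in the other direction (ratio 1.06), so no direction can be given.

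EPCAM (chromosome 2, 47345158 to 47387601, plus strand) was the only 1 of the 10 genes called lower under DTP in all 4 lines. The largest fall was in H1975, from 272, 123 and 241 TPM to 18.1, 25.8 and 21.5 TPM (-3.27 ± 0.32, adjusted p = 2.53e-06). HCC827 went from 429, 467 and 508 TPM to 203, 108 and 91.7 TPM (-1.85 ± 0.27, adjusted p = 7.47e-05). The groups did not overlap in either line.

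In PC9, EPCAM and CDH1 parted. EPCAM fell from 545, 491 and 545 TPM to 278, 273 and 288 TPM at 24 h (-0.89 ± 0.08, adjusted p = 2.71e-07) and to 274, 298 and 267 TPM under DTP (-1.17 ± 0.08, adjusted p = 1.08e-07), while CDH1 rose in both arms. HCC2935 showed the smallest DTP change, from 748, 702 and 795 TPM to 552, 609 and 518 TPM (-0.56 ± 0.10, adjusted p = 0.000159). The 24 h change in H1975, to 67.0, 135 and 169 TPM (-0.76 ± 0.29, adjusted p = 0.0425), was lost without acute library 1 (0.147) or 2 (0.0611), without DMSO library 1 (0.17) or 3 (0.127) and with its own 6 libraries (0.119). Without both libraries that stood apart, set aside for their EPCAM among others, the change was -0.75, with no test.

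CDH2 (chromosome 18, 27950966 to 28177446, minus strand), whose gain in place of CDH1 is known as the cadherin switch, rose in 2 lines. In HCC2935 it went from 13.5, 12.7 and 7.70 TPM to 132, 149 and 146 TPM under DTP (3.50 ± 0.23, adjusted p = 9.38e-09) with no change of CDH1 past the test. In HCC827 it went from 2.66, 2.19 and 0.997 TPM to 5.11, 18.9 and 18.4 TPM (2.87 ± 0.55, adjusted p = 0.000746). The lowest of these was DTP library 1, the one that had kept the most CDH1.

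CDH2 was hardly present in the other lines. H1975, which lost the most CDH1, had 0.0287, 0.0655 and 0.0624 TPM under DMSO and 0.156, 0.127 and 0.0804 TPM under DTP (1.28 ± 0.52, adjusted p = 0.0527, and 0.0466 without DTP library 3). PC9 had 0.226, 0.283 and 0.191 TPM against 0.113, 0.116 and 0.132 TPM (-1.20 ± 0.40, adjusted p = 0.015), a call lost without DMSO library 2 (0.0568) and in both limma fits (0.0657 and 0.0896). No acute arm gave a call for CDH2 (edgeR, adjusted p = 0.0588 to 0.92, none with an unadjusted p under 0.05 except in PC9), and PC9 passed without acute library 3 (0.00653).

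VIM (chromosome 10, 17228259 to 17237593, plus strand) rose under DTP by similar amounts in HCC827 and HCC2935. HCC827 went from 96.1, 109 and 75.5 TPM to 632, 593 and 752 TPM (2.79 ± 0.16, adjusted p = 4.1e-08). HCC2935 went from 26.5, 30.8 and 16.4 TPM to 204, 208 and 178 TPM (2.85 ± 0.35, adjusted p = 5.88e-06). The DTP level of HCC2935 was thus still below that of untreated H1975.

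At 24 h VIM rose in both of these lines, by 0.44 ± 0.15 in HCC827 (adjusted p = 0.0336) and 0.98 ± 0.34 in HCC2935 (0.0255). The first call was lost without acute library 1 (0.158) or DMSO library 1 (0.0665) or 3 (0.108), and the second without acute library 1 (0.0815) or 2 (0.141) or DMSO library 3 (0.106), in both limma fits (0.0537 and 0.0562) and with the line's own 6 libraries (0.057). PC9 fell from 17.1, 12.9 and 20.7 TPM to 4.81, 4.08 and 5.47 TPM at 24 h (-1.80 ± 0.27, adjusted p = 4.11e-05). Its DTP libraries, at 15.2, 7.14 and 14.6 TPM, overlapped DMSO, and that call (-0.70 ± 0.26, adjusted p = 0.0274) was lost without DMSO library 1 (0.056) or 3 (0.12) or DTP library 2 (0.11) and in both limma fits (0.114 and 0.115).

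In H1975 VIM was at 959, 1926 and 1092 TPM under DMSO and at 2019, 1676 and 1957 TPM under DTP. The difference of 0.54 ± 0.23 missed the threshold (adjusted p = 0.0655). The high DMSO value was that of library 2, the one with the lowest CDH1 of its group. Without it the change was 0.86 (adjusted p = 0.00344), but that library had been noted for its VIM, so this p follows in part from the choice.

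FN1 (chromosome 2, 215360440 to 215436172, minus strand) rose under DTP in PC9, HCC827 and HCC2935. PC9, which had the least, went from 27.7, 18.1 and 27.6 TPM to 393, 301 and 550 TPM (3.83 ± 0.41, adjusted p = 1.93e-06), in the same libraries in which CDH1 was raised. HCC827 went from 44.7, 42.2 and 54.9 TPM to 316, 396 and 290 TPM (2.79 ± 0.18, adjusted p = 1.1e-07). HCC2935 went from 1230, 1304 and 1112 TPM to 4902, 6349 and 7083 TPM (2.18 ± 0.18, adjusted p = 1.17e-07).

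Part of the FN1 rise was present at 24 h. It was 1.14 ± 0.17 in HCC827 (adjusted p = 0.000146) and 1.09 ± 0.37 in PC9 (0.018), the second lost without acute library 3 (0.0594) or DMSO library 2 (0.0752). HCC2935 had 1454, 1565 and 1379 TPM at 24 h, above all its DMSO libraries, but missed the threshold (0.31 ± 0.17, adjusted p = 0.156). In H1975 FN1 was at 260, 156 and 122 TPM under DMSO, 265, 234 and 385 TPM at 24 h and 353, 164 and 276 TPM under DTP. Neither arm passed (adjusted p = 0.0795 and 0.17), but both did without DMSO library 1 (0.0178 and 0.0402).

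**Figure D3:**
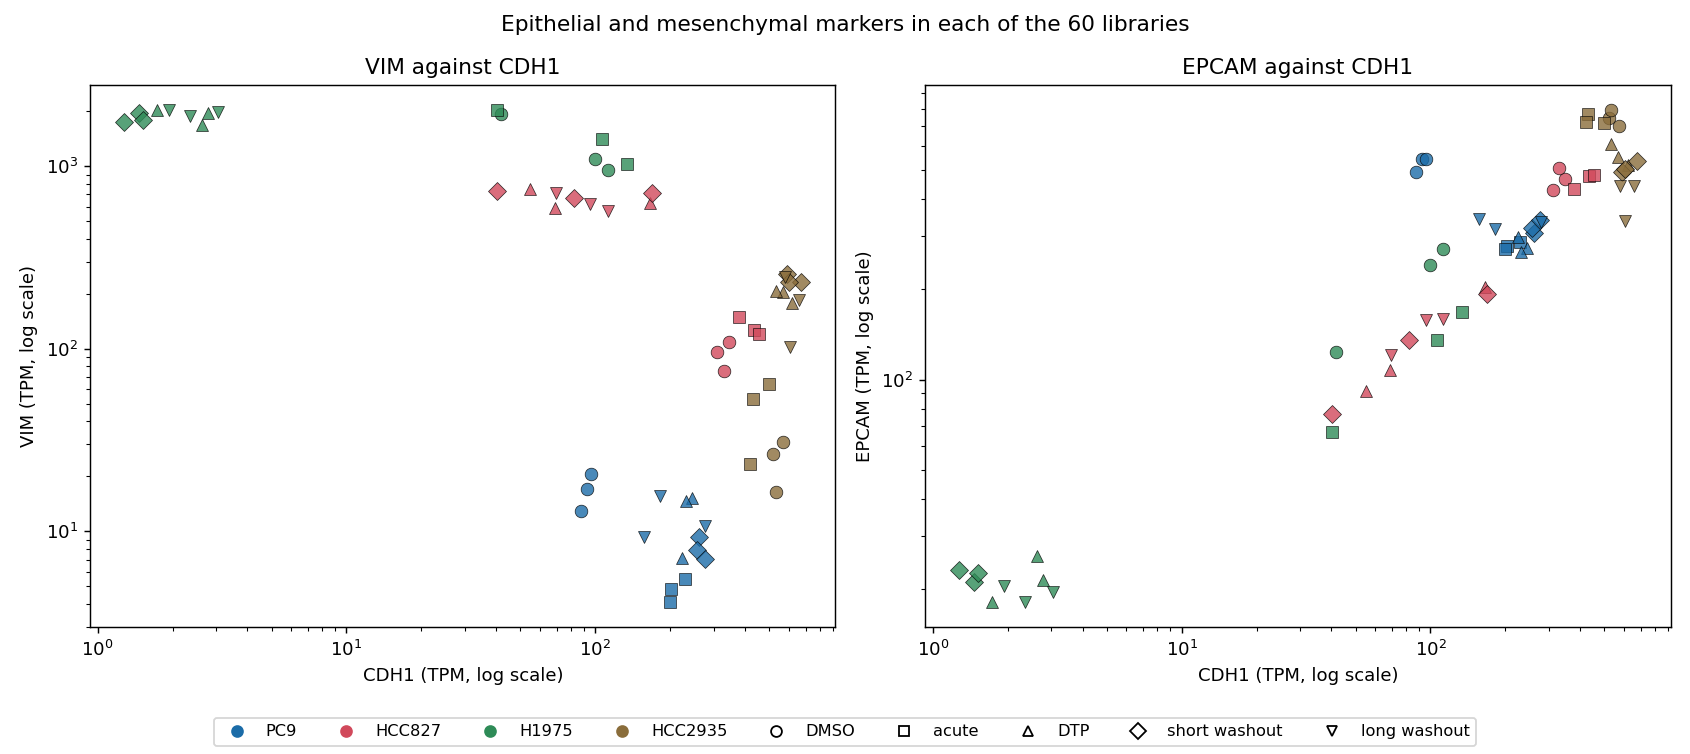
VIM (left) and EPCAM (right) against CDH1, both in TPM on log axes, with 1 point per library, colored by line and shaped by arm. The 9 H1975 libraries of DTP and both washouts sit at 1.28 to 3.04 TPM of CDH1, apart from all others, and PC9 moves to higher CDH1 without higher VIM.

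Whether the lines responded differently was tested as the interaction of line and arm. Under DTP, 9 of 10 genes passed (61.6% of all genes), from CDH1 (adjusted p = 7.92e-09) and VIM (2.76e-07) to ZEB2 (0.00796) and TWIST1 (0.0354). SNAI2 was the exception at 0.0769, but it passed with the replicate number as a block (0.0403), in both limma fits (0.0341 and 0.0288) and without library 2 of each group (0.00707). TWIST1 was lost without library 1 (0.0537), 2 (0.133) or 3 (0.229) of each group and in both limma fits (0.103 and 0.357), and ZEB2 without library 3 (0.144) and in limma on log2 TPM (0.0532).

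For the acute arm, 4 of 10 passed against 40.5% of all genes, a share near the background. These were SNAI1 (adjusted p = 0.000203), VIM (0.000678), SNAI2 (0.00233) and CDH1 (0.0419). CDH1 was lost without any 1 library number (0.0649, 0.076 and 0.236), with the block (0.109) and in both limma fits (0.0655 and 0.0531), and SNAI2 without library 1 of each group (0.146). CDH2 passed without library 3 (0.0299), EPCAM in DESeq2 (0.0279) and without the filter (0.0483), and TWIST1 in limma on log2(TPM + 1) (0.0151).

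In the arms labelled as washout, few of the 10 genes were called against DTP. In H1975 these libraries still had DUSP6 as low as under DTP. In HCC827 the DTP group did not differ from DMSO in DUSP6 past the test, and within that group library 2 alone lay above DMSO. Its long washout, at 18.8 to 26.3 TPM, lay above all DMSO libraries (12.5 to 15.3 TPM). In PC9 and HCC2935 DUSP6 stayed far below DMSO in both washouts. Whether the values of these lines show what follows drug removal is thus not settled. Short washout against DTP gave a call for 1 of 10 genes in PC9 (5.92% of all genes) and for 0 of 9, 0 of 9 and 0 of 10 in HCC827, H1975 and HCC2935 (0%, 0.0585% and 3.14% of all genes). In edgeR, 2 members of HCC827 (SNAI1 and FN1) had an unadjusted p under 0.05 and none of H1975 or HCC2935, and neither DESeq2 nor limma called any member in these lines. The exception was CDH2 of PC9, which went from 0.113, 0.116 and 0.132 TPM to 0.435, 0.498 and 0.358 TPM (1.84 ± 0.39, adjusted p = 0.0189). DESeq2 gave it no adjusted p, and the edgeR call was lost without DTP library 1 (0.0586), 2 (0.0887) or 3 (0.0631) or short washout library 1 (0.056) or 2 (0.0823). With the line's own 6 libraries the adjusted p of CDH1, EPCAM and ZEB1 in PC9 was also under the threshold (0.0371 to 0.0376). Over all genes, none was called in HCC827 (291 at an unadjusted p under 0.05, 0 in DESeq2, in limma and with the replicate number as a block). H1975 gave 9 genes, or 56 with the block. Same-numbered DTP and short washout libraries deviated together in HCC827 (r 0.42 to 0.71) and H1975 (0.25 to 0.61). The tests above took no account of this, except the block, which spanned all 15 libraries of a line. A fit of the pairs alone was not run, so these few calls do not show an absence of change.

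Long washout against DTP gave 2 of 10 genes in PC9 (37.2% of all genes) and 2 of 10 in HCC2935 (11.8%). In HCC827 and H1975 it gave 0 of 9 each, where 0% and 0.0065% of all genes were called by edgeR, 502 and 615 genes had an unadjusted p under 0.05, DESeq2 called 3 and 32 genes, and limma 0 and 1. The members with an unadjusted p under 0.05 were SNAI1 in HCC827 and CDH2 in H1975, and no other tool called either. SNAI1 of HCC827 stood at 2.28, 2.30 and 2.99 TPM, above its 0.768 to 1.43 TPM under DTP.

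In PC9, FN1 fell from 393, 301 and 550 TPM to 190, 73.9 and 324 TPM in the long washout (-1.04 ± 0.37, adjusted p = 0.0406), and EPCAM rose from 274, 298 and 267 TPM to 317, 344 and 336 TPM (0.34 ± 0.08, adjusted p = 0.00484). The FN1 call was lost without DTP library 1 (0.0719) or 3 (0.165), without long washout library 1 (0.0997) or 2 (0.12) and with the line's own 6 libraries (0.127), and its groups overlapped. CDH1 was called without long washout library 3 (0.00245). In HCC2935, EPCAM went lower still, to 443, 441 and 339 TPM (-0.41 ± 0.10, adjusted p = 0.0122), and SNAI2 higher still, to 35.9, 31.9 and 32.6 TPM (0.66 ± 0.15, adjusted p = 0.011). That EPCAM call was lost without DTP library 2 (0.0641) or long washout library 3 (0.0723) and with the line's own 6 libraries (0.0723), and FN1 was called without long washout library 1 (0.0341).

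Set against DMSO, the long washout gave calls for most members in HCC827, H1975 and HCC2935, in a comparison that shares its DMSO libraries with DTP against DMSO. It gave 4 of 10 genes in PC9 (44.9% of all genes), 9 of 9 in HCC827 (42%), 6 of 9 in H1975 (53.3%) and 6 of 10 in HCC2935 (43.3%). CDH1 of H1975 was at 2.34, 1.93 and 3.04 TPM (-5.09 ± 0.47, adjusted p = 1.31e-06), and its EPCAM at 18.1, 20.5 and 19.5 TPM. In HCC827, VIM was at 621, 710 and 568 TPM and ZEB2 at 15.5, 15.4 and 13.6 TPM, with changes of 2.72 ± 0.16 and 4.61 ± 0.53. CDH2 of HCC2935 was at 176, 171 and 131 TPM (3.71 ± 0.23). FN1 of PC9, though lower than under DTP, was still 2.80 ± 0.39 above DMSO (adjusted p = 9.3e-05).

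Weaker calls against DMSO depended on single libraries. In H1975, ZEB1 (0.68 ± 0.25, adjusted p = 0.0327) was lost without DMSO library 1 (0.154) or 3 (0.127) or long washout library 2 (0.0723) or 3 (0.0848), without the filter (0.0676) and with the 6 own libraries (0.0685). VIM of H1975 (0.61 ± 0.23, adjusted p = 0.0374) was lost without DMSO library 1 (0.169) or 3 (0.144), without any of the 3 long washout libraries (0.0645, 0.0744 and 0.0852) and without the filter (0.0767). SNAI2 of H1975 (0.63 ± 0.19, adjusted p = 0.0113) was lost without DMSO library 1 (0.0556) or long washout library 2 (0.0623). VIM of PC9 (-0.68 ± 0.26, adjusted p = 0.0486) was lost without DMSO library 1 (0.0961) or 3 (0.188) or long washout library 2 (0.126) or 3 (0.146), in both limma fits (0.142 each) and with the 6 own libraries (0.0638). Calls were gained for ZEB1 of PC9 (0.04) and SNAI1 of H1975 (0.0298), each without DMSO library 2. TWIST1 of HCC2935 (3.63 ± 1.03, adjusted p = 0.00976) was lost without long washout library 1 (0.0551) and in limma on log2(TPM + 1) (0.0508).

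The epithelial side of the program was also counted in 24 keepers of the epithelial state and junction genes. Under DTP, 17 rose and 1 fell in PC9 (median log2 fold change 0.51), 0 rose and 14 fell in HCC827 (-0.97), 1 rose and 14 fell in H1975 (-1.31), and 6 rose and 12 fell in HCC2935 (-0.34). The medians of all genes lay between 0.02 and 0.06. Of all genes, 69.2% were called in PC9, 43.4% in HCC827, 51.7% in H1975 and 52.8% in HCC2935. The largest falls in each line were of OVOL2 in H1975 (-7.59 ± 0.85), a zinc finger repressor of EMT factors, of ESRP1 in HCC827 (-2.38 ± 0.41), a splicing factor of epithelial isoforms, and of GRHL1 in HCC2935 (-2.45 ± 0.13), of the grainyhead family. The leading risers were GRHL3 in PC9 (2.73 ± 0.34) and GRHL2 in HCC2935 (1.97 ± 0.35), also of the grainyhead family. The only faller in PC9 was CDS1 (-0.31 ± 0.07). At 24 h this list had risen in PC9 (22 of 24, 1 fell), and 8 rose with 1 fall in HCC827, 8 with 0 in H1975 and 7 with 3 in HCC2935. Of all genes, 66.2%, 39%, 51.6% and 47.1% were called then, so that only PC9 lay above the share of all genes.

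**Figure D4:**
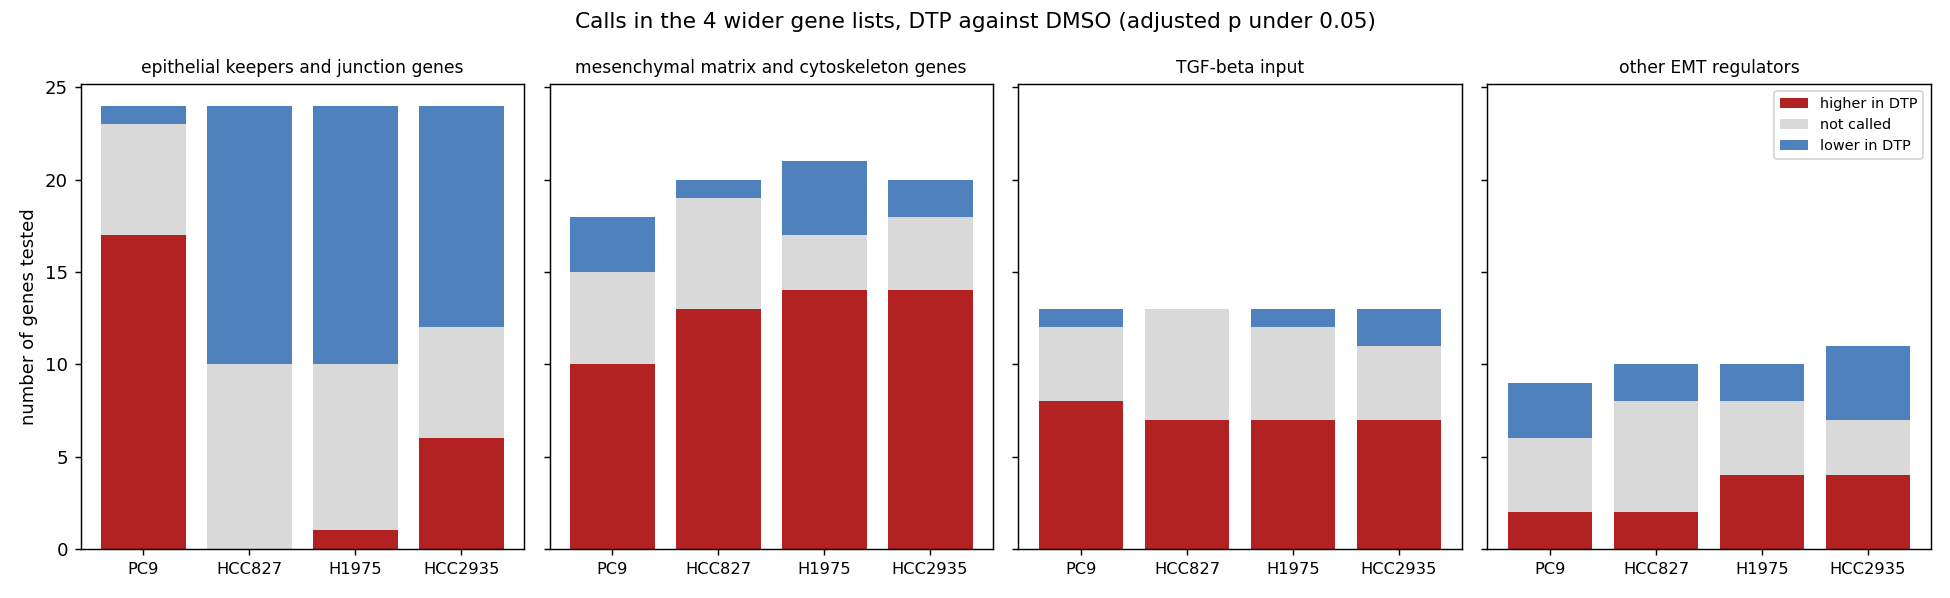
Number of tested genes called higher, called lower or not called under DTP against DMSO in each line, for epithelial keepers and junction genes, mesenchymal matrix and cytoskeleton genes, TGF-beta input and other EMT regulators. The epithelial list has 17 of 24 genes higher in PC9, whereas HCC827 and H1975 have 14 lower each and 0 and 1 higher.

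Among 22 mesenchymal matrix and cytoskeleton genes, most calls under DTP were rises in every line. Of 18 tested in PC9, 10 rose and 3 fell (median 0.87), of 20 in HCC827 13 rose and 1 fell (1.00), of 21 in H1975 14 rose and 4 fell (1.25), and of 20 in HCC2935 14 rose and 2 fell (2.09). In PC9 the share called was near the 69.2% of all genes, and in the other lines it was above their 43.4%, 51.7% and 52.8%. Leading genes were MYL9 in PC9 (6.36 ± 0.63), a myosin light chain of contractile cells, COL3A1 in HCC827 (7.45 ± 1.36), NNMT in H1975 (2.33 ± 0.14) and LOX in HCC2935 (5.58 ± 0.35), which cross-links collagen. The fibronectin receptor subunit ITGA5 fell in PC9 (-1.31 ± 0.15) and HCC2935 (-0.82 ± 0.13), TNC in HCC827 (-1.06 ± 0.25) and MMP9 in H1975 (-1.43 ± 0.34). At 24 h, 14 of 21 genes were higher and 1 lower in H1975 (51.6% of all genes called), 9 and 4 of 18 in PC9 (66.2%), 3 and 1 of 20 in HCC827 (39%) and 1 and 2 of 20 in HCC2935 (47.1%).

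Among 13 genes of the TGF-beta input, 8 rose and 1 fell in the DTP of PC9 (median 0.45), 7 rose and 0 fell in HCC827 (0.33), 7 rose and 1 fell in H1975 (0.28), and 7 rose and 2 fell in HCC2935 (0.62). The share called equalled that of all genes in PC9 (69.2%), and is thus no result about the list there, and all genes were called at 43.4%, 51.7% and 52.8% in the other lines. INHBA, the activin A subunit, led in HCC827 (4.90 ± 0.68), H1975 (4.38 ± 0.22) and HCC2935 (3.66 ± 0.29), and BAMBI, a decoy receptor, in PC9 (2.92 ± 0.33). Falls were of SMAD2 in PC9 (-0.17 ± 0.06), SMAD3 in H1975 (-0.38 ± 0.12) and SMAD4 in HCC2935 (-0.31 ± 0.11), which carry the signal. Among the other EMT regulators, 2 rose and 3 fell of 9 tested in PC9 (median -0.34), 2 and 2 of 10 in HCC827 (0.11), 4 and 2 of 10 in H1975 (0.28) and 4 and 4 of 11 in HCC2935 (-0.30). These shares were below that of all genes in PC9 (69.2%), near it in HCC827 (43.4%), and above it in H1975 (51.7%) and HCC2935 (52.8%). HMGA2, a chromatin protein, fell in PC9 (-5.52 ± 0.35), H1975 (-3.42 ± 0.18) and HCC2935 (-2.91 ± 0.28). KLF8 rose in PC9 (2.29 ± 0.20) and H1975 (1.96 ± 0.33) and fell in HCC827 (-1.60 ± 0.56), where SOX4 led the risers (1.57 ± 0.22), and TCF4 led in HCC2935 (1.68 ± 0.26).

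Across the 20 groups, after each line's own mean was removed, ZEB1 and ZEB2 ran most nearly together (Pearson r = 0.955 over 20 group means). This is a description over group means that share their lines and DMSO libraries. CDH1 and EPCAM had r = 0.858, CDH2 and VIM 0.903, CDH1 and VIM -0.388, and ZEB1 and SNAI1 -0.437. The genes nearest to each member were CPEB1 for ZEB1 (0.951), CST7 for ZEB2 (0.977), PGM1 for SNAI1 (0.864), PTPRM for SNAI2 (0.923), ST14 and ESRP1 for CDH1 (0.977 and 0.975), MAP7 for EPCAM (0.975), MXRA5 for CDH2 (0.982), DOCK4 for VIM (0.955) and TSPAN11 for FN1 (0.967). TWIST1 was too low for this comparison.

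Overlapping transcripts may limit some of these values. In GENCODE release 29, ZEB1, ZEB2, VIM, CDH1, CDH2, TWIST1 and EPCAM have a gene on the opposite strand over part of their span. Among these are ZEB1-AS1, ZEB2-AS1 and VIM-AS1. The span includes introns, and overlap of exons was not checked. The sources used here do not say whether counting used the strand. Where exons overlap, reads of either partner thus may not have been told apart. ZEB2 and SNAI1 also have a pseudogene each (ZEB2P1 and SNAI1P1), which could share reads with them.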

How the data were processed

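Bulk mRNA of 60 libraries (4 lines, 5 arms, 3 libraries each) was analysed from 2 deposited tables. One table holds the estimated counts of each gene as deposited, not whole and not scaled between libraries. In the other the authors deposited log2 TPM values with a pseudocount of 0.01. The submitters' processing notes name HISAT2 2.1.0, Salmon 0.8.2 and the build hg38, but not their roles or an annotation. Libraries were TruSeq mRNA. TPM totals were 0.806 to 0.891 M per library.

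Groups came from the labels. Counts were rounded to whole numbers. For each line, all 15 libraries were fitted together in edgeR 4.0.16 (R 4.3.3) with TMM normalization, the filterByExpr filter and the quasi-likelihood F-test. Differences among lines used the DMSO libraries, or the interaction of line and arm. Benjamini-Hochberg adjustment covered every gene tested, calls were made under 0.05, and SE is the log2 fold change divided by the square root of F. P-values measure only the spread between these libraries. TPM served to show levels. The 10 genes and the 4 further lists were chosen with earlier results of these data known. Calls of the 10 genes were counted in every comparison, and values are given for each gene under DTP and for a part of them in the other arms. From each list the called genes with the largest rise and fall under DTP (mean of at least 1 CPM) were named. A further such gene is not reported here. Of 14 other regulators, 12 were in the tables. Nearest genes were taken over 13810 genes.

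Alternatives were RLE size factors, no filter, DESeq2 1.42.0, limma 3.58.1 on log2 TPM and on log2(TPM + 1), each comparison's own libraries, the replicate number as a block and leaving out each library. Fits without the libraries that stood apart (H1975 DMSO 2 and acute 1, HCC827 DTP 1 and short washout 1) were added after seeing the data. Same-numbered libraries deviated together in all 3 pairs only for short washout against DTP in HCC827 (r 0.42 to 0.71) and H1975 (0.25 to 0.61) and for acute against DMSO in HCC2935 (0.13 to 0.37). The pairing comes from the numbers in the labels. All 60 pairs of replicates differed by more than counting error. The fits were tested on simulated data with 200 changed genes. Symbols were located in GENCODE release 29. Promoter windows came from RefSeq.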

Additional observations from a re-analysis of the deposited data

Results flagged for a closer look

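The response to osimertinib differed between the 4 lines for 13 combinations of gene and arm, by edgeR's test of the interaction of line and arm. Of all genes, 61.6% passed this test for DTP and 40.5% for the acute arm, so the 4 acute calls of 10 were near the background. Under DTP these were CDH1 (adjusted p = 7.92e-09), VIM (2.76e-07), SNAI1 (5.96e-06), EPCAM (6.54e-06), FN1 (7.67e-06), CDH2 (9.54e-05), ZEB1 (0.000175), ZEB2 (0.00796) and TWIST1 (0.0354). After 24 h they were SNAI1 (0.000203), VIM (0.000678), SNAI2 (0.00233) and CDH1 (0.0419). TWIST1 under DTP (0.0537 to 0.229) and CDH1 at 24 h (0.0649 to 0.236) lost the call whichever library number was left out. SNAI2 at 24 h lost it without library 1 (0.146), and ZEB2 under DTP without library 3 (0.144). CDH1 rose in the DTP of PC9 (1.10 ± 0.12) and fell in those of HCC827 (-1.82 ± 0.40) and H1975 (-5.14 ± 0.47). SNAI2 rose at 24 h in HCC827 (1.27 ± 0.33) and H1975 (1.12 ± 0.19) and fell in HCC2935 (-0.83 ± 0.17).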

How the results depend on the processing

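In no alternative did a called member change direction, and across all alternatives 2601 values of single members kept their side of the threshold, 51 gained a call and 99 lost one. Members without an adjusted p in an alternative were left out of these counts. CDH2 of PC9 in short washout against DTP, called by edgeR, was left out in this way for DESeq2. Calls of short washout against DTP moved most: DESeq2 gave 1858 genes in PC9, 949 in HCC2935 and 504 in H1975 and 0 members, the comparison's own libraries gave 3221 in PC9, 0 in H1975 and 4 members, and H1975 gave 17 without a filter and 56 with the replicate block. For long washout against DTP, H1975 gave 32 genes in DESeq2, 2 without a filter, 2 with its own libraries and 6 with the block, HCC827 gave 3 in DESeq2, and own libraries gave 745 in HCC2935, 2496 in PC9 and 2 members. Long washout against DMSO gave 4278 genes in PC9 with own libraries. Elsewhere the block moved no count by over 1.5 times. It changed 5 member calls: SNAI1 (acute, PC9), ZEB2 (DTP, PC9) and SNAI2 (DTP by line) were gained at 0.0461, 0.0448 and 0.0403, and ZEB1 (DTP, PC9) and CDH1 (acute by line) lost at 0.0524 and 0.109.

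Leaving out 1 library gave 105 (without DTP library 2) to 431 genes for short washout against DTP in PC9 (880 with all), 132 (without DTP library 2) to 486 in HCC2935 (469), 0 (without DTP library 1) to 590 (without DTP library 2) in H1975 (9), and 0 to 1 members. For long washout against DTP it gave 3162 (without long washout library 2) to 7387 genes in PC9 (5532), 781 (without long washout library 3) to 2617 in HCC2935 (1758) and 0 to 4 in H1975 (1). Leaving out 1 library number gave 3146 to 4525 genes (6472) and 2 to 4 members for the acute effect by line, and 6147 to 8646 genes (9859) for the DTP effect by line. TWIST1 had at most 2.38 estimated counts a library under DMSO in HCC2935, so its fold change is imprecise. The causes of these shifts were not tested.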

Other observations

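In H1975 the deviations of DMSO and acute libraries from their group means ran from r = -0.65 to 0.73 over genes between libraries, with the highest between libraries of different numbers.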
